A study of Mus musculus with 6 samples.

Results

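Natural killer (NK) cells of the mouse spleen were read from 6 single-cell libraries by the raw counts of a few genes. Barcodes with fewer than 200 genes or over 20% mitochondrial counts were left out. The NK cells were chosen by measured counts in these same libraries: a cell was taken if Ncr1, Klrb1c, Klre1, Klra4, Klra8 and Gzma summed to at least 3 counts, Cd3d, Cd3e and Cd3g summed to 0 and Cd79a, Cd79b and Ms4a1 summed to at most 1. The rule found 382 NK cells among 15578 cells that passed, or 2.45% (exact binomial 95% interval 2.22 to 2.71). It used the 12 genes just named, so their values are given as description and were not tested.

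The libraries came from 3 ways of making barcoded cDNA in droplets, with 2 libraries each, sequenced as long reads on a Nanopore instrument. The 3′ kit (v3.1) joins the cell barcode at the poly(A) end of a transcript and the 5′ kit (v2) joins it at the template-switch end. The standard 5′ libraries used an extension of 45 min in reverse transcription and 1 min in amplification. The modified 5′ libraries received 1 µl of 10 mM dNTP at both steps and used 2 h and 3 min. All 6 libraries were labelled as spleen of C57BL/6 females aged 10 weeks, with no allele or drug named. For replicate 1 of each protocol the labels describe a strained spleen with lysis of red cells, and for replicate 2 they describe pancreatic islets and depletion of insulin, against their own tissue label. The labels do not say that replicates were separate animals, so p-values may measure technical spread only.

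NK cells are innate lymphocytes that kill infected or transformed cells with perforin and granzymes, without a rearranged antigen receptor. Whether they kill is set by a balance of inhibitory and activating surface receptors. In mice many of these are lectin-like proteins of the Ly49 family (Klra genes), many of which read MHC class I, and of the NKG2 family (Klrc and Klrk genes). Both families hold activating members, which pair with adaptor proteins carrying activation motifs, and inhibitory members. In the spleen NK cells mature from CD27-high to CD11b-high cells.

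The share of NK cells per library was 1.93% and 2.45% in the 3′ replicates 1 and 2, 1.86% and 2.81% in the standard 5′ replicates and 1.98% and 2.96% in the modified 5′ replicates. Replicate 2 was higher than replicate 1 in each protocol. The cells numbered 45, 99, 16, 90, 40 and 92 in the order of the shares, which holds for every list of 6 values below. No barcode of an NK cell was shared between libraries.

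Standard 5′ replicate 1 stood apart, with 16 NK cells and 5715 counts in them, against 21898 to 56733 in the other 5 libraries. Its NK cells held 12.3% globin counts, and 1 barcode with 56.4% globin supplied most of them. One count there was worth 175 CPM (a gene's counts scaled to 1e6 counts of the class in that library), against 17.6 to 45.7 CPM elsewhere. The median NK cell had 286 to 645 counts by library, the median T cell 317.5 to 729 and the median B cell 357.5 to 581. In 3′ replicate 2, 3 NK cells carried 270 of the 279 counts of the class II genes Cd74, H2-Aa, H2-Ab1 and H2-Eb1. The summed level of the 17 B cell list genes was 5358 CPM there and 228 to 1050 CPM in the other libraries, and that of the 15 myeloid list genes 2913 against 317 to 1024 CPM. Of 15 pancreas genes searched, 0 to 2 had counts in the NK cells of a library, with 0 to 3 counts in all.

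The counts of the 6 genes around the threshold are given as description. The rule read these same counts, so they do not test whether the NK cells are a separate group. Among 2801 cells without Cd3 counts and with at most 1 count of the B cell genes, 2374 had no count of the 6 genes. Just below the threshold lay 31 cells with 1 count and 14 with 2, and just above it 9 cells with 3 and 8 with 4. The median NK cell had 14 counts, with a range of 3 to 53, and 282 had at least 10. A further 57 cells reached 3 counts but had a Cd3 count, and 8 had more than 1 count of the B cell genes.

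**Figure D1:**
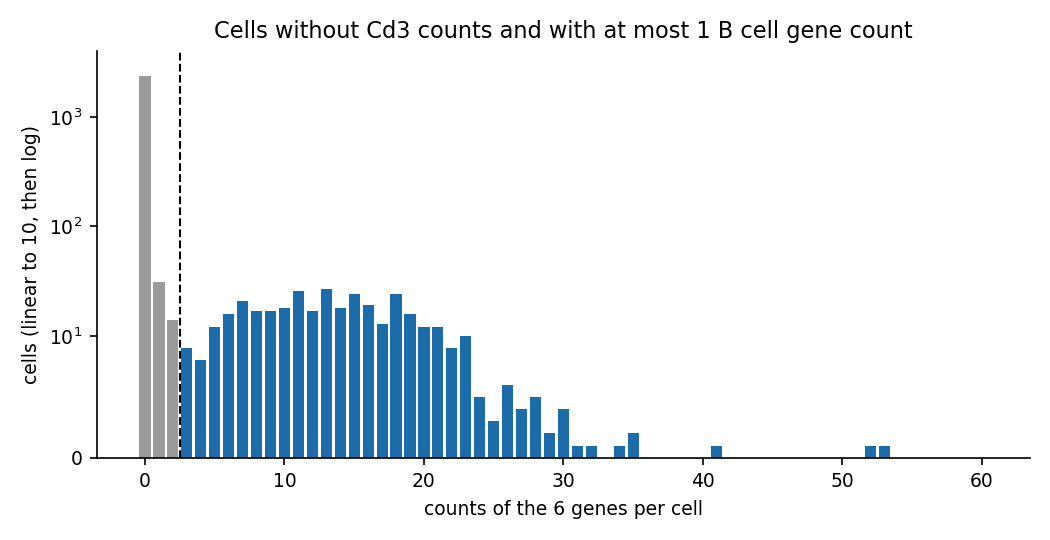
Number of cells (vertical axis, linear up to 10 and logarithmic above) by the counts of the 6 genes per cell (horizontal axis), for cells without Cd3 counts and with at most 1 B cell gene count, all libraries together. Grey bars are cells below the threshold of 3 (dashed line), and blue bars are the 382 NK cells, with few cells near the threshold.

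Gzma, which encodes the serine protease granzyme A, supplied 60.5% of the 5555 counts the rule read. Gzma was present in 354 of the 382 cells. Its level by library was 12399, 15842, 13998, 17683, 18449 and 13872 CPM. The ranges of the protocols overlapped. Ncr1, the activating receptor NKp46, was seen in 206 cells. Klrb1c, which encodes the NK1.1 antigen, was seen in 225. Klre1 was seen in 226, and the Ly49 receptor genes Klra4 and Klra8 in 249 and 200. Only 30 cells had all 6 genes, 12 had a single one, and 9 of those had Gzma alone.

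Coordinates are for mm10, from GENCODE M21. Ncr1 lies at chr7:4337724-4345164 and Gzma at chr13:113093825-113100981. Klrb1a, Klrb1c, Klre1, Klrd1, Klrk1, Klrc1, Klri2, Klra4, Klra8, Klra9 and Klra7 follow each other on chromosome 6, from the start of Klrb1a at 128609227 to the end of Klra7 at 130233322. The 250 bases before the start of 4 genes are printed to show what the promoters of genes that were high together hold. Capitals mark TGTGGT or its reverse complement, the letters bound by RUNX factors. The sequences are from RefSeq (GRCm38.p6), 5′ to 3′ on the strand of the gene: Ncr1 at chr7:4337465-4337714 (plus), Gzma at chr13:113100982-113101231 (minus), Klrk1 at chr6:129623865-129624114 (minus) and Cma1 at chr14:55944676-55944925 (minus).
Ncr1: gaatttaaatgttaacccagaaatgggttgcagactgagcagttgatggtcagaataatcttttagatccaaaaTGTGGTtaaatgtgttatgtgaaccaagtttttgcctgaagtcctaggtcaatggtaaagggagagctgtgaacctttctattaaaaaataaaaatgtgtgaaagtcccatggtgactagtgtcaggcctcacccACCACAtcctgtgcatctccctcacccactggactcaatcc
Gzma: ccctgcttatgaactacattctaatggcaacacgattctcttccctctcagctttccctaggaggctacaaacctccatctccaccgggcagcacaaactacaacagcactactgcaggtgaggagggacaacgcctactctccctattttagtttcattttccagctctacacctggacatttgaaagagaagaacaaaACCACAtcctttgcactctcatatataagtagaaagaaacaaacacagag
Klrk1: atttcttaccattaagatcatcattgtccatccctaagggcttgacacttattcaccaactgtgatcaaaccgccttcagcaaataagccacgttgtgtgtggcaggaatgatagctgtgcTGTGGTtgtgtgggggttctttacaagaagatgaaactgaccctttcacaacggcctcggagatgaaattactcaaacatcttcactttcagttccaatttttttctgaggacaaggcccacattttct
Cma1: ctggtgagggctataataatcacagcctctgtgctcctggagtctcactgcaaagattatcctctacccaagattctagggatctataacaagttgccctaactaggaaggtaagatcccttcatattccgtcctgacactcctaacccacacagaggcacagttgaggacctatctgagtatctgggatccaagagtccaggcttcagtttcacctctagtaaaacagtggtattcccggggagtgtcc

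RefSeq entries were found for 15 of the 18 genes looked up, which were the 6 genes of the rule and the 12 with the largest rises over T cells given below. Klri2, Tyrobp and Ccl5 had none. TGTGGT, on either strand, was in the 250 bases of 8 of the 15 (Klrb1a, Klrb1c, Klre1, Klrk1, Klrc1, Ncr1, Gzma and Gzmb). Of all 32851 promoter entries, 14.0% held it. The T-box letters GGTGTGA were in none of the 15 and in 3.33% of all entries, and the STAT letters TTCNNNGAA were in Klra7 and in 7.02% of all entries. Both strands were searched for each motif, and a match is a description of letters only.

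The label was checked against genes outside the rule. Of Prf1, Gzmb, Nkg7, Tyrobp, Fcer1g, Eomes, Il2rb, Klrk1 and Klrd1, the median cell had 5 of 9 and 366 of the 382 had at least 3. No cell had 0. Nkg7, a granule membrane protein, was seen in 356 NK cells (93.2%), in 29.1% of T cells and in 0.124% of B cells. Of 10 genes listed for the related type 1 innate lymphoid cells, Ikzf3 had 54 counts and the other 9 had 1 to 7 each, Il7r the most.

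The T cell receptor genes were unevenly present. Trac, the alpha constant gene, had 5 counts in 5 NK cells, whereas Trbc1 and Trbc2, the beta constant genes, had 102 and 94 counts. A Trbc count was seen in 131 cells. Trdc, the delta constant gene, had 36 counts. Trbc1 was seen in 21.2% of NK cells, 38.6% of T cells and 0.124% of B cells, and Trac in 1.31% of NK cells, 49.5% of T cells and 0.179% of B cells. Cd4 and Cd5 had 0 counts, Cd8a had 2 and Cd8b1 had 4. The first 500 bases of Trbc1 and Trbc2 share 68.3% of their 31-base words with other genes, so their counts may be split between the pair.

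Ly49 receptors were patchy from cell to cell, at a depth where a missing count does not show that a receptor was absent. Over Klra1, Klra3, Klra4, Klra5, Klra6, Klra7, Klra8, Klra9 and Klra10, 35 cells had none, 76 had 1 gene, 128 had 2, 98 had 3, 35 had 4 and 10 had 5. Klra4 and Klra8 were read by the rule. Among the others, Klra7 (Ly49G) was seen in 147 cells, Klra9 (Ly49I) in 126, Klra3 (Ly49C) in 50 and Klra1 (Ly49A) in 26. Klra5, Klra6 and Klra10 were seen in 7, 5 and 6 cells. Klra2 had 0 counts. Of the 147 cells with Klra7, 119 also had Klra4, and of the 126 with Klra9, 72 did. Klra4 was seen in 249 of all 382 cells and helped to choose them, so these shares are description only. Klra3, Klra8, Klra9 and Klra10 share 44.5%, 55.0%, 58.8% and 65.1% of their 31-base words with other genes, so the split between them is uncertain. Klra4 and Klra7 share 17.5% and 27.75% of theirs, so counts seen together may in part be assigned between them.

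**Figure D2:**
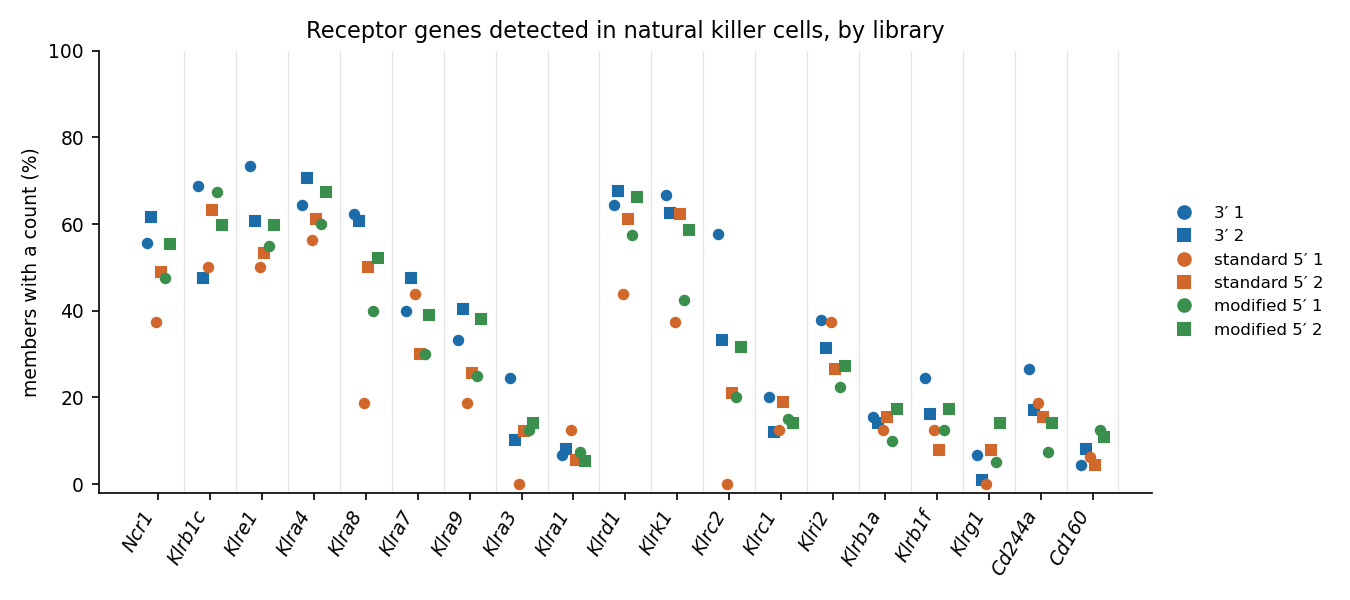
Share of NK cells with at least 1 count (vertical axis, percent) of each receptor gene (horizontal axis), with a point per library, coloured by protocol and shaped by replicate. Ncr1, Klrb1c, Klre1, Klra4 and Klra8 were read by the rule. Standard 5′ replicate 1, with 16 cells, is often lowest and had no Klrc2 or Klra3 count.

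Of the NKG2 family and its partners, Klrd1 (CD94, the shared chain) was seen in 242 cells, Klrk1 (NKG2D) in 225, Klrc2 (NKG2C) in 115 and Klrc1 (NKG2A) in 59. Klrd1 was seen in 43.8% to 67.7% of the cells of a library, and after every cell was thinned to 200 counts in 22.5% to 36.7%. Klrc2 was seen in 0% to 57.8% of the cells of a library, highest in 3′ replicate 1. Klrc1 and Klrc2 share 54.5% and 11.2% of their words with other genes.

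NK cells were compared with 2932 T cells of the same libraries, taken as cells with at least 2 Cd3 counts and no count of the 6 genes. The cells were chosen to differ, so genes that go with the 6 genes or with Cd3 had to differ too, and the test says by how much and where. Counts were summed per library and class and tested with edgeR's quasi-likelihood test, with the library as a block and Benjamini-Hochberg adjustment at 0.05. Of 799 genes tested, 158 were higher and 191 lower in NK cells, 43.7% in all (19.8% higher, 23.9% lower). With scaling factors taken before the filter on low counts, 70 were higher and 369 lower, and the median difference over all genes moved from 0.04 to -0.43 on the log2 scale. Of the 349 genes called, 261 were called again under that scaling, which is not the order of steps used here.

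Tyrobp, which encodes DAP12, the adaptor that couples activating receptors, was at 2955, 2643, 3325, 5476, 6576 and 5817 CPM in NK cells and at most 32.1 CPM in T cells. The groups did not overlap, and the difference was 7.95 ± 0.20 (log2, SE, adjusted p = 9.1e-18, higher in 6 of 6 libraries). Fcer1g, another such adaptor, was at 3159, 3093, 2975, 4034, 4749 and 3984 CPM in NK cells and 13.3 to 36.6 CPM in T cells. It was higher by 7.14 ± 0.14 (adjusted p = 1.9e-19). Ccl5, a chemokine that draws T cells and monocytes, was at 15252, 13126, 12248, 23431, 26623 and 24571 CPM in NK cells and 641 to 1305 CPM in T cells. Its difference was 4.49 ± 0.16 (adjusted p = 1.8e-15).

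Several of the other named rises were Ly49, NKG2 and other lectin-like receptor genes. Klrk1 was at 1868, 1708, 1575, 2111, 1050 and 1763 CPM, and 5.67 ± 0.19 higher than in T cells. Klra7 rose by 5.65 ± 0.22, Klrc1 by 4.32 ± 0.33 and Klrb1a by 6.81 ± 0.43. Klra9 had 193 counts in NK cells and 1 in T cells, a ratio of pooled CPM of 1734 (exact 95% counting interval 308 to 68847). Klri2, an activating or inhibitory lectin-like chain of the same cluster, had 142 counts against 3, a ratio of 425 (143 to 2087). Cma1, the mast cell chymase gene, had 99 counts in NK cells and 0 in T cells, so it was at least 297-fold higher. Its level was 272, 557, 350, 439, 228 and 564 CPM, present in each library.

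**Figure D3:**
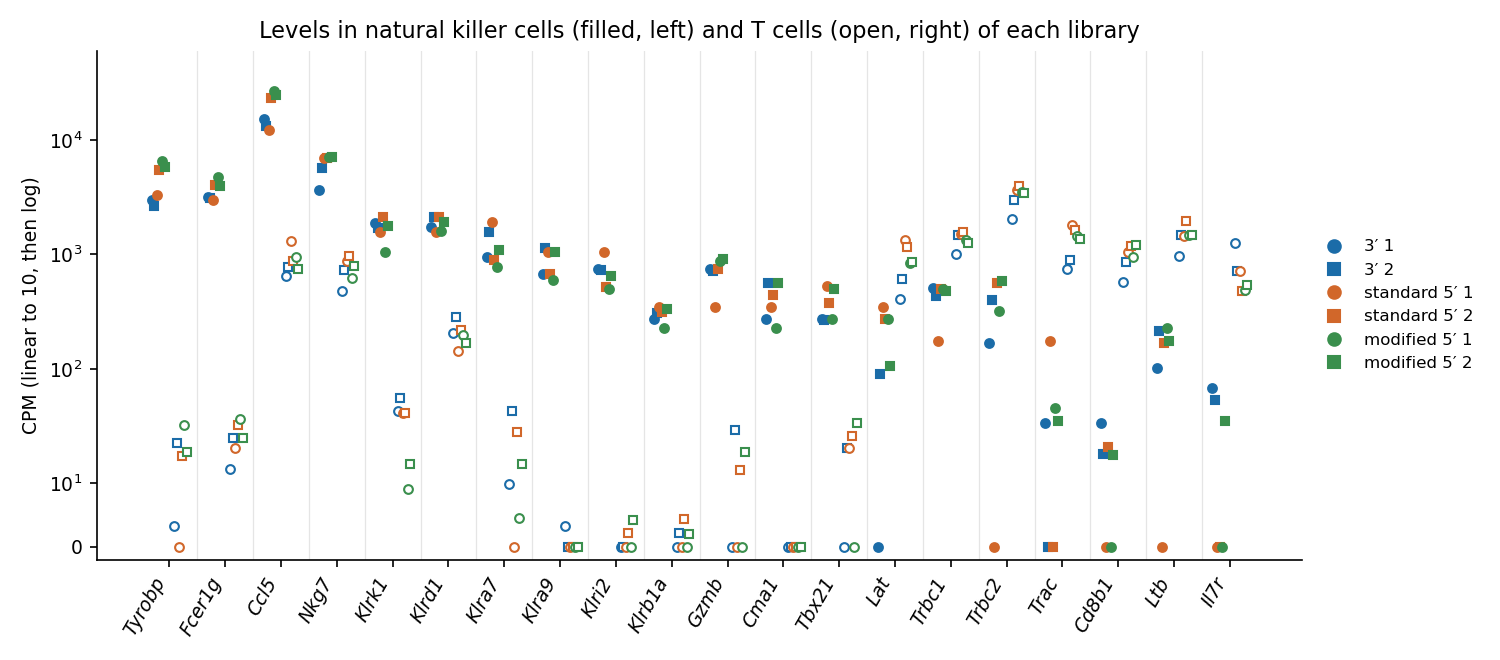
Level (CPM, vertical axis, linear up to 10 and logarithmic above) of 20 genes in NK cells (filled points, left of each gene) and T cells (open points, right), with a point per library, coloured by protocol and shaped by replicate. From Tyrobp to Tbx21 every NK point lies above every T cell point, and from Lat to Il7r every NK point lies below.

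Most of the cytotoxic granule genes that could be tested rose. Of 20 listed genes 7 could be tested, and 6 were higher and 0 lower. Of all genes tested, 19.8% were higher and 23.9% lower. The median difference was 3.58 against 0.04 over all genes tested. Gzmb, granzyme B, was at 747, 719, 350, 752, 868 and 917 CPM in NK cells and at most 29.2 CPM in T cells (5.72 ± 0.31, adjusted p = 2.5e-12). Nkg7 was 3.06 ± 0.10 higher, Serpinb9, an inhibitor of granzyme B, 4.52 ± 0.31, Serpinb6b 3.58 ± 0.24 and Ctsw, cathepsin W, 2.24 ± 0.17. Srgn, the proteoglycan that packs granules, differed by -0.15 ± 0.13 (adjusted p = 0.39).

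Many NK genes were too thin in standard 5′ replicate 1 to pass the filter. A gene with few or no T cell counts could pass only through the NK cells, where it is high, so the counts over tested list members here and below describe the genes that could be tested and are no evidence about a whole list. Without that library 2389 genes were tested, of which 302 were higher and 325 lower (26.2% in all, 12.6% higher and 13.6% lower). Granule genes then numbered 10 higher of 12 tested. Prf1, perforin, was at 883, 1133, 175, 982, 411 and 1005 CPM, against 22.9 to 61.2 in T cells, and 4.37 ± 0.17 higher in the 5 libraries (adjusted p = 1.1e-19). Fasl, the ligand of the death receptor Fas, was 3.89 ± 0.40 higher. Gzmk had 0 counts in NK cells, and Gzmc and Gzmm were too low to test.

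Of 8 Ly49 genes outside the rule 4 could be tested, and of 11 other lectin-like receptors 7, each of them higher in the 5 libraries. Of all genes tested there, 12.6% were higher and 13.6% lower. Klra9, Klri2 and Klrb1a had 1, 3 and 4 T cell counts, and Klra2, Klra5, Klra6 and Klra10, with 0, 8, 7 and 6 counts in NK cells, were not tested. Klra3 was higher by 5.68 ± 0.40, Klra1 by 4.05 ± 0.45, Klrc2 by 5.39 ± 0.27, Klrb1f by 6.62 ± 0.49 and Klrd1 by 3.10 ± 0.13. In T cells Klrd1 was at 143 to 283 CPM, so both classes had it. Klrg1, an inhibitory receptor of mature cells, was at 136, 54, 0, 146, 91.3 and 282 CPM and was too low to test.

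Adaptors and kinases went both ways. Of 13 tested of 22 in the 5 libraries, 7 were higher and 4 lower, against 12.6% higher and 13.6% lower of all genes tested there. Besides Tyrobp and Fcer1g, Cd244a, a receptor of the SLAM family, was higher by 5.94 ± 0.42 and Syk, a kinase recruited by such adaptors, by 5.87 ± 0.53. Lat, the membrane scaffold of the T cell receptor, differed by -2.56 ± 0.21 (adjusted p = 5.9e-12). Lck differed by -0.60 ± 0.13 and Slamf6 by -3.35 ± 0.43, and Cd247, a signalling chain of the T cell receptor and of NK receptors, was lower too. Zap70, the kinase that binds Cd247, differed by -0.10 ± 0.24 (adjusted p = 0.82).

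Transcription factors of NK cells were among the rises. In the 5 libraries 9 of 14 tested factors were higher and 3 lower, against 12.6% and 13.6% of all genes tested there. Eomes and Tbx21, the T-box factors that define the lineage, were at 611, 342, 350, 230, 502 and 159 CPM and at 272, 270, 525, 376, 274 and 494 CPM. They were 3.48 ± 0.30 and 4.06 ± 0.34 higher. Zeb2, a factor of late maturation, was higher by 5.77 ± 0.39, Irf8 by 5.42 ± 0.28 and Id2, which holds back the B and T cell fates, by 2.70 ± 0.15. Tcf7, Lef1 and Bcl11b, factors of T cells, were lower, by -2.95 ± 0.26, -2.52 ± 0.21 and -5.45 ± 0.58 in the fit. Gata3 and Ets1 did not pass.

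**Figure D4:**
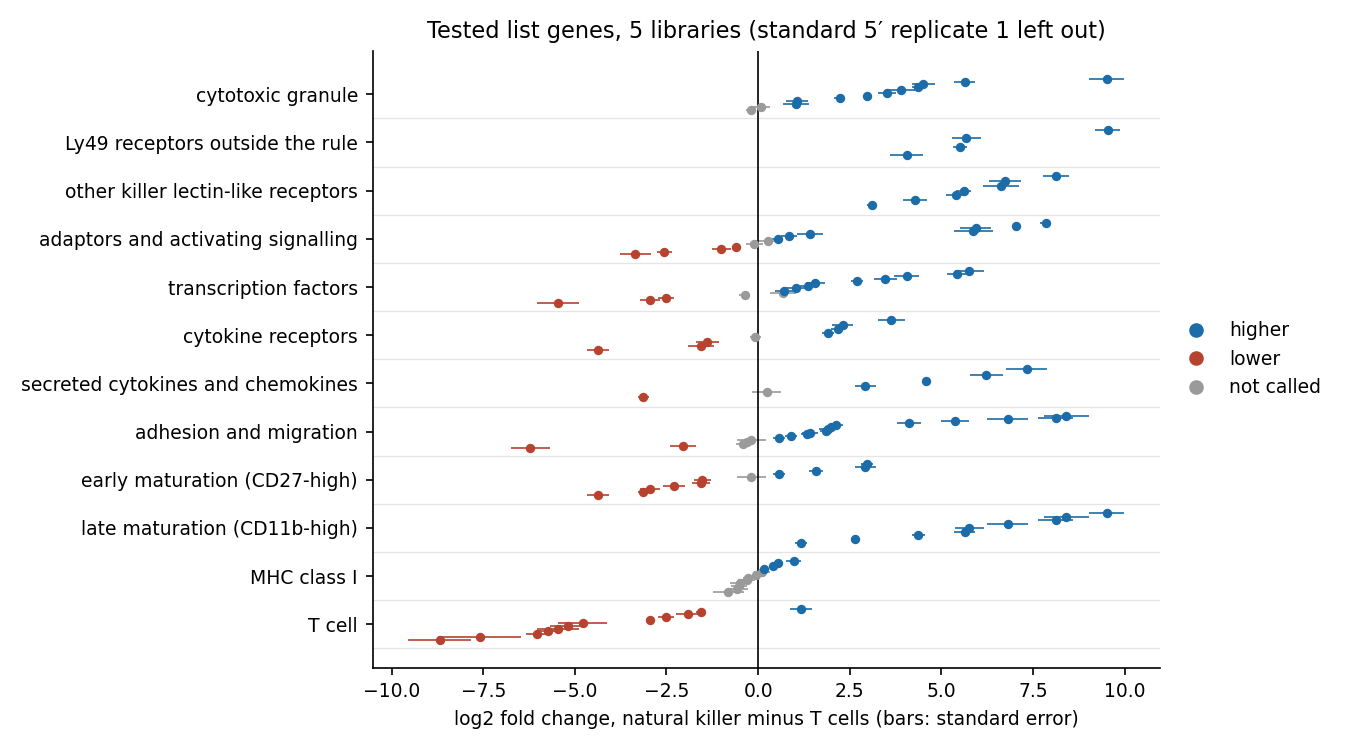
Difference between NK and T cells (log2 fold change, horizontal axis, bars are standard errors) of each tested gene of 12 lists (vertical axis), in the 5 libraries other than standard 5′ replicate 1. Blue points were higher, red points lower and grey points not called at an adjusted p of 0.05. Genes low in both classes are not drawn, and the T cell list holds 11 lower genes and 1 higher.

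Cytokine receptors were split in the 5 libraries, with 4 higher and 3 lower of 8 tested (12.6% and 13.6% of all genes tested there). Il2rb, the chain through which interleukin 15 keeps NK cells alive, was at 645, 1007, 1750, 961, 685 and 1921 CPM and 2.18 ± 0.18 higher. Il18rap and Il18r1, the receptor of interleukin 18, were 3.64 ± 0.36 and 2.31 ± 0.28 higher, and Ifngr1 1.90 ± 0.17. Il7r was at 68, 54, 0, 0, 0 and 35.3 CPM, against 479 to 1249 in T cells (-4.37 ± 0.30). Il2rg, the shared chain, differed by -0.07 ± 0.15 (adjusted p = 0.77). Of secreted proteins, Ccl4 was higher by 6.23 ± 0.46 and Xcl1, which attracts dendritic cells, by 2.93 ± 0.29. Ccl3 had 40 counts against 1 in T cells over the 6 libraries. Ifng was at 102, 162, 0, 105, 45.7 and 35.3 CPM and too low to test, and Tnf had 0 counts.

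Adhesion and migration genes in the 5 libraries were higher in 13 of 18 tested and lower in 2 (12.6% and 13.6% of all genes tested there). Some of them had few or no T cell counts and could pass the filter only through the NK cells. Itgam, the CD11b chain, had 44 counts in NK cells and 0 in T cells, at least 132-fold higher. Itgax had 43 against 3 counts. S1pr5, the receptor by which mature NK cells leave tissue, had 69 against 1, a ratio of 620 (108 to 24839). Itga2, the CD49b antigen, was higher by 5.37 ± 0.39 and Ccr2 by 4.12 ± 0.32. Itgb2, Itgb1 and Itga4 were 1.86 to 2.13 higher. Ccr7, which guides T cells to lymph nodes, had 1 count against 740, and S1pr1 differed by -2.05 ± 0.36.

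Of 12 genes of the CD11b-high stage 9 could be tested, and Cma1, Itgam, S1pr5 and Itgax among them had 0, 0, 1 and 3 T cell counts. Lgals1 and Ly6c2, with 804 and 1115 T cell counts, were higher by 2.65 ± 0.09 and 1.17 ± 0.17. Klrg1, Cx3cr1 and Prdm1 were not tested. Genes of the CD27-high stage were higher in 4 of 11, among them Xcl1, Cd7 and Ctla2a, and lower in 6 (Cd27, Ltb, Tcf7, Emb, Il7r and Thy1). Of all genes tested in the 5 libraries, 12.6% were higher and 13.6% lower. The values of both stages are differences from T cells, which use several of the same genes, and not a stage of the NK cells. Cd27 was seen in 28 NK cells and Itgam in 40.

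MHC class I genes differed little. Of 12 tested in the 5 libraries, H2-Q6 was higher by 0.97 ± 0.19 and H2-D1 by 0.54 ± 0.06. H2-Q7 was higher by 0.40 ± 0.09 and H2-K1 by 0.16 ± 0.06, and 8 did not pass. Of all genes tested there, 12.6% were higher and 13.6% lower. With factors taken before the filter H2-Q7 turned to -0.06 and H2-K1 to -0.33, and H2-D1 no longer passed. The transcripts of H2-K1 and H2-Q6 share 22.45% and 50.3% of 31-base words with other genes. Under the same scaling Ctsc, Stxbp2, Sh2d1a, Runx3, Klf2, Hcst, Stmn1 and Trdc kept a positive sign in the 5 libraries but no longer passed, with Trdc at 0.71.

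The largest falls among abundant genes were T cell genes. Trac was at 738 to 1795 CPM in T cells and 0 to 175 in NK cells (-5.69 ± 0.29, adjusted p = 1.2e-12), and Cd8b1 differed by -5.69 ± 0.26. Dapl1 had 1 count against 811 in T cells, Slfn1 1 against 548, Cd8a 2 against 693 and Klk8, a kallikrein gene at chr7:43797577-43803826, 2 against 550. Ifi27l2a was at 0 to 62.7 CPM against 482 to 1273 (-4.74 ± 0.30). Gm20186, a long noncoding RNA at chr6:18845910-18848207, was at 0 to 175 CPM against 952 to 1917 (-4.68 ± 0.26). All 20 named rises and falls kept their call under each alternative in which they were tested. Against only the T cells with a Cd8a or Cd8b1 count, 165 genes were higher and 184 lower.

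The cells most like NK cells that the rule left out were the 57 with NK genes and a Cd3 count, of which the replicate 2 libraries held 17, 14 and 11. In those 3 libraries 389 genes were tested and 30 were higher and 44 lower in NK cells (19.0% in all, 7.71% higher, 11.3% lower). The classes were split by Cd3 counts, so genes that go with Cd3 had to differ here too. A gene without counts in the Cd3-positive cells, such as Cma1, could pass the filter only through the NK cells. A library needed at least 10 Cd3-positive cells to enter. Without the cells that had at least 5 class II counts, modified 5′ replicate 2 held 9 and left the fit. With both left out, 2 and 3 genes were called, 5 of the 74 were called again and all 74 kept their direction. With modified 5′ replicate 2 alone left out, 48 of the 74 were called again. Tyrobp was at 2643, 5476 and 5817 CPM in NK cells, and 1.52 ± 0.17 higher (adjusted p = 1.4e-06). Fcer1g (1.59 ± 0.20), Nkg7 (1.09 ± 0.16) and Ccl5 (0.82 ± 0.12) were higher too. These 3 did not pass in the fit without the class II cells, which also lacked modified 5′ replicate 2. Cma1 had 84 counts against 0, at least 6.54-fold higher. Cd8b1, the coreceptor chain of killer T cells, had 3 against 31. Ltb, a lymphotoxin chain, was at 216, 167 and 176 CPM against 1608, 1501 and 1377 (-2.92 ± 0.32, adjusted p = 1.2e-06), and Trbc2 differed by -2.34 ± 0.28. Ltb, Trbc2, Cd8b1 and Tyrobp were called in each alternative in which they were tested, whereas Fcer1g, Nkg7, Ccl5, Cma1, Rps19 (-1.75), Klra9 (2.40), Irf8 (2.31), Emb, Cd9 and Tpm4 lost their call in some.

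The study's question of what the capture protocol does was asked within NK cells, over 780 genes in 1 fit of all 6 libraries. The standard and modified 5′ comparisons share the 3′ libraries. Standard 5′ against 3′ gave 21 higher and 46 lower (8.59% in all, 2.69% higher, 5.9% lower), and modified 5′ against 3′ gave 16 higher and 40 lower (7.18%, 2.05% and 5.13%). With factors taken before the filter the counts were 4 and 6, and 2 and 6. Of 9 granule genes and 3 Ly49 genes tested, 0 were called in either comparison, which is near the share of all genes called. Tyrobp differed by 0.43 ± 0.34 (adjusted p = 0.51) in standard and 0.92 ± 0.33 (adjusted p = 0.076) in modified 5′.

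Rps25, a ribosomal protein gene at chr9:44407139-44410427, was at 815 and 575 CPM in the 3′ libraries, 0 and 0 in standard 5′ and 91.3 and 17.6 in modified 5′. It differed by -4.22 ± 0.62 in modified 5′ (adjusted p = 2.5e-06). T cells showed the same order, with 1286 and 891 CPM in 3′ and 37.0 to 114 CPM in the 5′ libraries. Gm26917, a long noncoding RNA at chr17:39843013-39846341, was at 1019 and 1762 CPM in 3′, 175 and 0 in standard 5′ and 91.3 and 35.3 in modified 5′ (-4.91 ± 0.59 in modified 5′, adjusted p = 8.7e-09). Gvin1, an interferon-inducible GTPase gene, was at 1291 and 971 CPM in 3′ and at 83.6 to 370 CPM in the 5′ libraries. It shares 99.7% of its 31-base words with other genes.

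Cox4i1, a subunit of cytochrome c oxidase, was at 204 and 126 CPM in 3′, 700 and 1380 in standard 5′ and 1279 and 1445 in modified 5′. It was 2.90 ± 0.47 higher in modified 5′ (adjusted p = 1.3e-05) and 2.68 ± 0.49 in standard 5′. Anxa2, a membrane-binding annexin, was at 306 and 306 CPM in 3′, 1925 and 1881 in standard 5′ and 1598 and 1569 in modified 5′, 2.14 ± 0.38 higher in modified 5′. Gpx4, an antioxidant enzyme, was at 34.0 and 18.0 CPM in 3′ and at 159 to 627 in the 5′ libraries (4.14 ± 0.80 in standard 5′, adjusted p = 2.9e-04). Gpx4 shares 66.8% of its words with other genes. Gpx1, Ypel3 and Rhog rose in standard 5′, where Gpx1 lost its call without the globin-rich cells. Calm3, Bcap31 and Lgals9 rose in modified 5′. Lgals9 lost its call there in 9 of 17 alternatives, Bcap31 in 7 of 17 and Calm3 in 2 of 16. Ncl and Vmn2r53 fell in standard 5′ and Selenok, Pnn and Gbp4 in modified 5′. DESeq2 did not call Gm26917, Gpx4, Ypel3, Ncl, Rhog and Vmn2r53 in standard 5′, nor Gm26917, Selenok, Pnn, Calm3, Bcap31, Lgals9 and Gbp4 in modified 5′. With factors taken before the filter Cox4i1 and Rhog lost their call in standard 5′ and Anxa2, Pnn, Bcap31 and Lgals9 in modified 5′, Anxa2 in standard 5′ too. Without standard 5′ replicate 2, Gm26917, Rps25, Gvin1, Cox4i1, Anxa2, Ypel3, Ncl and Rhog lost theirs in standard 5′. Rps25 and Cox4i1 in modified 5′ were called in each of 18 alternatives.

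**Figure D5:**
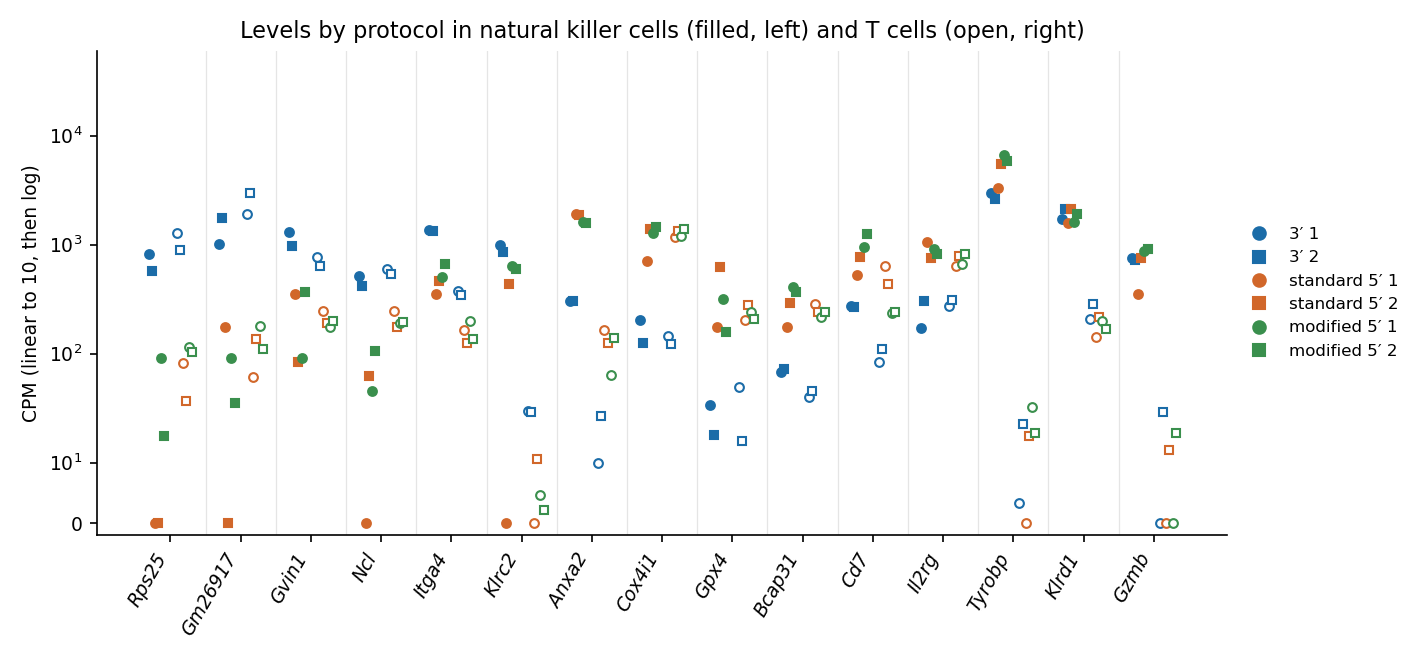
Level (CPM, vertical axis, linear up to 10 and logarithmic above) of 15 genes in NK cells (filled points, left) and T cells (open points, right), with a point per library, coloured by protocol and shaped by replicate. Rps25 and Gm26917 are highest in the 3′ libraries and Anxa2 and Cox4i1 lowest there, in both cell types. Tyrobp, Klrd1 and Gzmb were not called between protocols in NK cells.

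A few genes listed for NK cells were called between protocols. Itga4, an integrin chain, was at 1359 and 1331 CPM in 3′, 350 and 460 in standard 5′ and 502 and 670 in modified 5′ (-1.86 ± 0.44 and -1.37 ± 0.38, adjusted p = 0.0029 and 0.014). Klrc2 was at 985 and 863 CPM in 3′, 0 and 439 in standard 5′ and 639 and 599 in modified 5′ (-1.57 ± 0.48 in standard 5′, adjusted p = 0.032). Il18r1 and Ets1 passed in standard 5′, at -2.12 ± 0.62 and -1.45 ± 0.49. Cd7 and Il2rg were higher in modified 5′, at 1.83 ± 0.43 and 1.52 ± 0.44. None of the 6 genes Itga4, Klrc2, Il18r1, Ets1, Cd7 and Il2rg passed with factors taken before the filter, where the lowest adjusted p was 0.21. DESeq2 called none of them in these comparisons either. In standard 5′ the call was lost in 13 of 18 alternatives for Ets1, 7 of 18 for Klrc2, 6 of 16 for Il18r1 and 4 of 18 for Itga4. In modified 5′ it was lost in 8 of 18 for Itga4, 8 of 18 for Il2rg and 5 of 18 for Cd7. Klrc2, Il18r1 and Ets1 were at 0 CPM in standard 5′ replicate 1. Cst3 and H2-Aa were called lower in both 5′ protocols, but this rests on 3′ replicate 2. Cst3 was at 2445 CPM there and at 170 CPM in 3′ replicate 1, below each 5′ library, and its sign turned in both comparisons without 3′ replicate 2. H2-Aa was at 917 and 0 CPM in the same libraries. Of its Cst3 counts, 119 of the 136 came from the 3 cells with class II counts.

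Modified against standard 5′ gave 0 higher and 1 lower of 780 genes by edgeR (0.128%). The gene was Hbb-bs, a beta globin gene, at 75066 CPM in standard 5′ replicate 1, the library with the globin-rich barcode, and 0 in replicate 2. Without cells over 5% globin it gave 0, and without standard 5′ replicate 1 Hbb-bs was called the other way (6.66, adjusted p = 0.040). DESeq2 called 0, and 37 genes had an unadjusted p under 0.05. Between the replicate sets, with the protocol in the fit, 1 of 575 genes was higher in replicate 2 and 1 lower (0.348%), Cst3 and Hbb-bs, chosen for naming after their values were seen. Without the cells that had at least 5 class II counts, 0 were higher. Cst3 was at 170, 350 and 365 CPM in replicates 1 and 2445, 481 and 247 in replicates 2, which overlap.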

How the data were processed

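The authors deposited a table of raw counts per gene and barcode for each of 6 libraries, not normalized. For replicate 2 Seurat, and for all the build mm10, are named per the submitters' processing notes. No source used here names the aligner, annotation, strand setting or treatment of molecular identifiers. Doublets were not called. The NK rule, comparators and gene lists were chosen with earlier results of these data known. Counts were summed per library and class and tested with edgeR 4.0.16 (R 4.3.3) after filterByExpr, without the 12 genes the rules read. A first fit took TMM factors from all genes before the filter. The order was then changed to factors from the filtered table, after that fit's results had been seen, because the design did not state it, and counts under both are given. Library totals ranged from 723341 to 2627253 counts. Named genes were the 12 largest rises and 8 largest falls against T cells with at least 100 CPM in the higher class and 1 direction in 6 of 6 libraries, and 5 and 5 between protocols with groups that did not overlap. Members of 20 gene lists were also named, the examples chosen after their values were seen. The fits were tested on simulated data. DESeq2 1.42.0 was an alternative. In NK cells the deviations of same-numbered replicates from their protocol means correlated at 0.041 to 0.049 over 780 genes. With so few counts a low correlation does not show that the sets did not move together. Globin counts of all cells that passed were 5.99%, 6.84% and 3.92% in replicates 1 of 3′, standard 5′ and modified 5′. In replicates 2 they were 0.11%, 0.13% and 0.04%. Intervals cover counting error only. One gene of the lists is not reported here by name.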

Additional observations from a re-analysis of the deposited data

Results flagged for a closer look

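The effect of the protocol in NK cells differed from that in T cells for 2 genes, by an edgeR test of the interaction with adjusted p under 0.05. For Hbb-bs the difference of standard 5′ minus 3′ was 9.01 larger in NK cells (log2), and that of modified minus standard 5′ was -9.5. Hbb-bs had 429 counts in the NK cells of standard 5′ replicate 1, where 1 barcode held 56.4% globin, and 0 in replicate 2. Ighm differed by 2.74 ± 0.65 for modified 5′ minus 3′ (adjusted p = 0.019). Ighm had 3 and 3 counts in the 3′ NK cells and 2 and 19 in the modified 5′ NK cells, so replicate 2 supplied most of it, while in T cells the 3′ libraries were at 299 and 1070 CPM and the modified 5′ libraries at 334 and 441. With factors taken before the filter no gene passed for modified 5′ minus 3′.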

How the results depend on the processing

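The shares of NK cells stayed within their intervals under each alternative. Counts below are genes higher and lower, and the number of genes tested changed as well. Against T cells, no filter on low counts tested 16477 genes in place of 799. Between protocols it tested 11704 in place of 780. Leaving out NK cells with T cell receptor constant counts tested 391 between protocols. For NK against T cells, no filter on low counts gave 555 and 361, scaling factors taken before the filter 70 and 369, and no replicate block 103 and 127. Leaving out 1 library gave 119 to 302 and 161 to 325, the highest without standard 5′ replicate 1, where more genes passed the filter. For NK against Cd3-positive cells with NK genes, DESeq2 gave 13 higher, factors before the filter 90 and 7 and no replicate block 12 and 24. Leaving out 1 library gave 10 to 27 and 29 to 38, lowest without standard 5′ replicate 2. At least 2 counts of the 6 genes gave 48 higher, and so did the rule without Gzma. In both, modified 5′ replicate 1 joined the fit, with 11 Cd3-positive cells each. At least 4 counts gave 14 and 23, and cells with 5 or more class II counts left out 2 and 3. In both of these, modified 5′ replicate 2 left the fit, with 9 Cd3-positive cells each. The samples therefore differed as well as the setting.

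For standard 5′ against 3′, DESeq2 gave 4 and 4, no filter 13 and 29, NK cells with T cell receptor constant counts left out 10 and 15, factors before the filter 4 and 6, the replicate block 14 and 29, and 1 library left out 4 to 32 and 3 to 42, both lowest without standard 5′ replicate 2. For modified 5′ against 3′, DESeq2 gave 3 and 2, no filter 7 higher, at least 2 counts of the 6 genes 25 higher, receptor counts left out 8 and 18, globin-rich cells left out 27 higher, factors before the filter 2 and 6, the replicate block 18 and 36, and 1 library left out 4 to 35 and 10 to 53. For modified against standard 5′, DESeq2 gave 0 lower, no filter 4 lower, at least 2 counts 1 higher, receptor counts or globin-rich cells left out 0 lower, the replicate block 0 and 1, and 1 library left out 0 to 2 and 1 to 4. Between replicate sets, DESeq2 gave 0 and 0, no filter 4 and 4, receptor counts left out 0 and 0, and the highest 2% of cells by counts, class II cells or factors before the filter 0 higher. Leaving out 1 library gave 0 to 3 and 1 to 3. The interaction tests gave 0 to 3 genes when 1 library was left out. For modified 5′ minus 3′ RLE normalization gave 2 and factors before the filter 0. The causes of these changes were not tested.

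Deviations of same-numbered replicates from their protocol means correlated at 0.041 to 0.049 in NK cells. The main protocol fits did not use the pairing, though this low correlation does not show it absent. The replicate block was run as an alternative. For the genes chosen by the rule and other called genes followed through these alternatives, 1052 values kept their direction and call, 162 kept the direction without the call and 9 reversed. Cst3 in standard 5′ against 3′ turned to 0.58 without the highest 2% of cells, 0.54 without class II cells and 1.06 without 3′ replicate 2 (range with 1 library left out -2.64 to 1.06), and in modified 5′ against 3′ to 0.47 without that library (range -3.21 to 0.47). Between replicate sets Cst3 turned to -0.21 without 3′ replicate 1 and -0.27 without 3′ replicate 2 (range -0.27 to 3.19). Hbb-bs in modified against standard 5′ turned to 2.52 without cells with receptor counts, 2.88 without globin-rich cells and 6.66 without standard 5′ replicate 1 (range -10.45 to 6.66). Among all 349 genes called against T cells, 336 kept their direction with factors taken before the filter. Standard 5′ replicate 1, with 5715 NK cell counts, limits which genes can be tested.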
